A study of Homo sapiens with 4 samples.

Results

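The ERBB receptors and their EGF-family ligands were described in MCF12A cells, a line of human breast epithelium that is not tumorigenic, although a label calls it a cancer line. The 10 genes were taken by symbol from the 16811 genes of the deposited table. They comprised 3 receptors (*EGFR*, *ERBB2* and *ERBB3*) and 7 ligands (*AREG*, *EREG*, *TGFA*, *HBEGF*, *BTC*, *NRG1* and *EPGN*), and all 10 had a value above 0 in all 4 libraries. The study compared 2 libraries of wild-type cells (labelled WT) with 2 libraries of *C1orf132* KO cells, called edited here, in which CRISPR/Cas9 removed a distal promoter of this long non-coding RNA, the host gene of miR-29b2 and miR-29c. Edited cells were grown as colonies from single sorted cells, and which colony was sequenced is not given in the sources used here, so an effect of the deletion and a difference between 1 colony and the parental cells cannot be told apart. Both groups were cultured with 20 ng/mL recombinant human EGF, insulin, hydrocortisone, cholera toxin and horse serum. EGFR thus had an added ligand, EGF, in all 4 libraries. *C1orf132* itself was not analysed here, and groups rest on the labels alone. Where 4 values of a gene are given, edited replicates 1 and 2 come first, followed by wild-type replicates 1 and 2. The replicates are labelled as biological, with no statement of separate cultures, and p-values measure the spread between these libraries only.

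ERBB receptors are tyrosine kinases of the cell surface. EGFR binds EGF, amphiregulin (AREG), TGF-alpha (TGFA) and epigen (EPGN), while heparin-binding EGF-like growth factor (HBEGF), betacellulin (BTC) and epiregulin (EREG) bind EGFR and ERBB4. Neuregulin 1 (NRG1) binds ERBB3 and ERBB4. ERBB2 has no known ligand of its own and acts as the preferred partner of the other receptors, and ERBB3 has little kinase activity and signals through such partners. Most ligands are made as membrane proteins and are released by proteases, and in the mammary gland EGFR and AREG are required for growth of the ducts.

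Poly(A)-selected RNA was read from 1 end for 75 bases. The values are a normalized expression signal whose scaling is not given in the sources used here. The value of 1 read fell with transcript length, from a median of 1.04 in the shortest 80 genes where it could be found (median 96 bases) to 0.0151 in the longest 80 (4127 bases). Levels of different genes are therefore compared as values scaled for length, which is inferred from these files. The scaling was not exact. The value of 1 read times transcript length in kb had a median of 0.101 in the shortest and 0.0591 in the longest genes. Comparisons of level between genes are thus approximate. Totals of the values were between 1444644 and 1655437 per library. Reads per unit of value, relative to edited replicate 1, were 1.12 times as many in its fellow edited library. They were 0.930 times as many in wild-type replicate 1 and nearly equal in wild-type replicate 2. This is a ratio of scales, which need not equal sequencing depth because the totals differed. Whole reads were recovered for 3 members (*HBEGF*, *BTC* and *EPGN*), and counting intervals given for them are exact 95% Poisson intervals that cover counting error only. Among epithelial markers, 6 of 11 genes were lower and 1 was higher in edited cells at an adjusted p under 0.05 (limma). The higher one was *KRT8* (378 and 365 in edited against 194 and 175 in wild-type libraries). Of the 9590 genes with a mean of at least 10, 4.2% were called lower and 7.09% in either direction. Summed marker values were 4911 and 5695 (edited) against 11285 and 20449 (wild-type). Of these, *KRT5*, which did not pass (adjusted p = 0.146, limma), held 3514 and 3056 against 4590 and 11914. *CDH1*, which encodes the epithelial adhesion protein E-cadherin, was at 3.89 and 1.54 in the edited libraries against 150 and 123. Of the other cell types, fibroblast markers were represented by *COL1A1* and *DCN* (2 of 8 genes, summed 18.3 and 111 against 23.0 and 29.2), of which *COL1A1* was lower (3.19 and 5.58 against 15.6 and 28.1, adjusted p = 0.0420, limma) and *DCN* did not pass (15.1 and 105 against 7.42 and 1.09), blood markers by *CD14* (1 of 5, at 8.98 and 9.28 against 15.1 and 9.53) and adipocyte markers by *FABP4* (1 of 4, at 2.20 and 1.31 against 1.26 and 25.9). The remaining genes of these lists and all 5 endothelial markers were not analysed here.

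The genes of 4 ligands lie close together on the long arm of chromosome 4, and their promoters are shown because the 4 genes did not have like values. In RefSeq on GRCh38.p14, of the build (hg38) that the submitters' processing notes name, *EPGN* (74308470 to 74316789), *EREG* (74365145 to 74388749) and *AREG* (74445136 to 74455005) lie on the plus strand, and *BTC* (74744759 to 74794523) on the minus strand. The 4 genes span 486054 bp. The 250 bases before the annotated start site, the upstream one for *EGFR*, are given for them, and for *HBEGF* (chromosome 5, 140332843 to 140346603, minus strand) and *EGFR* (chromosome 7, 55019017 to 55211628, plus strand), a ligand and its receptor whose edited libraries both lay below both wild-type libraries. They are read 5′ to 3′ along the transcribed strand from chr4:74308220-74308469, chr4:74364895-74365144, chr4:74444886-74445135, chr4:74794524-74794773, chr5:140346604-140346853 and chr7:55018767-55019016. Capitals mark matches on either strand to the TATA motif (TATAAA), the CRE (TGACGTCA), an E-box (CACCTG), the GC box (GGGCGG) and the AP-1 motif (TGANTCA).
EPGN: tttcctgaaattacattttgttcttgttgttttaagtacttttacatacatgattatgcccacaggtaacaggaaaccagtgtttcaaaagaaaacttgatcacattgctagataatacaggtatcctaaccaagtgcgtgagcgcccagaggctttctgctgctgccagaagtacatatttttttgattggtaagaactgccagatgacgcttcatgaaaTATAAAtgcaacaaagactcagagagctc
EREG: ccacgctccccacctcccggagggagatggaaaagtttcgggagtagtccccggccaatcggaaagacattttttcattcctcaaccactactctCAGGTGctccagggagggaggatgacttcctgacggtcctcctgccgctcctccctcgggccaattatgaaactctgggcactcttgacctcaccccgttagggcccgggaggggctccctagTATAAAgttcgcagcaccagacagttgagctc
AREG: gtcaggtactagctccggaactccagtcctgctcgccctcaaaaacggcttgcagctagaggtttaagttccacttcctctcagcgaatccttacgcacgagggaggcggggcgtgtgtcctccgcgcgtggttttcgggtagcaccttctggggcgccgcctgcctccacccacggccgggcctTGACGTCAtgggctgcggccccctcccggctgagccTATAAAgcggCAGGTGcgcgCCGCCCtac
BTC: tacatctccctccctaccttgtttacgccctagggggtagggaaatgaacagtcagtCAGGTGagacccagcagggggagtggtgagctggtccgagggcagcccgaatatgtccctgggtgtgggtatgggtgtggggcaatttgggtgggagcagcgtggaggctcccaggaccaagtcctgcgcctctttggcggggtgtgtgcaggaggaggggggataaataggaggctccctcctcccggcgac
HBEGF: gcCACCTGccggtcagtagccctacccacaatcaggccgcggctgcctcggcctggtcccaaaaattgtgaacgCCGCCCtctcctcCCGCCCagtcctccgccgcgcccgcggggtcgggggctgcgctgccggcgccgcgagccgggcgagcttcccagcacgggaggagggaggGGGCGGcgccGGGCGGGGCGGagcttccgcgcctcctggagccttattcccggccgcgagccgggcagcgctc
EGFR: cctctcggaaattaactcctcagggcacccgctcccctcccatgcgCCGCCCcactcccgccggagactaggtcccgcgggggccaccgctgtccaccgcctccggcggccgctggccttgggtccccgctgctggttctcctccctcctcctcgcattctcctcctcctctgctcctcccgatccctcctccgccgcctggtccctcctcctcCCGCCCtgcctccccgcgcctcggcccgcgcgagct

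The 3 plus-strand genes of the cluster each held a TATA match that began 29 (*EPGN* and *AREG*) or 32 bases (*EREG*) before the start site, a motif present in 10.7% of 35116 such windows in RefSeq. *AREG* also held a CRE match, found in 1.65% of windows. An E-box was found in *EREG*, *AREG*, *BTC* and *HBEGF* and in 17.5% of all windows. GC boxes numbered 5 in *HBEGF*, of which the last pair overlaps by 1 base, 2 in *EGFR* and 1 in *AREG*, against 42.6% of windows with at least 1. AP-1 (6.57% of all windows) was not matched in these 6 windows, but it had 2 matches before a downstream start site of *EGFR* and 1 before *ERBB2*, which are not shown. The GC content was 38.0% in *EPGN*, 58.0% in *EREG*, 65.2% in *AREG*, 62.0% in *BTC*, 76.4% in *HBEGF* and 73.6% in *EGFR*, and the median of all windows was 58.0%. Such matches describe the letters of these windows and are not evidence of bound factors.

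All 3 receptors had lower values in both edited libraries than in both wild-type libraries, and *ERBB3* was the 1 member of the family that passed the test. The 3 receptors summed to 99.5 and 149 in the edited, against 272 and 213 in the wild-type libraries. *ERBB3* fell to 0.211 times its wild-type mean. Of all 16811 genes, 61.6% had groups that did not overlap, in one direction or the other, so that separation alone does not set the receptors apart.

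*ERBB3*, the neuregulin receptor gene on chromosome 12 (56080108 to 56103505), had values of 6.28 and 8.94 in the edited, against 42.5 and 29.5 in the wild-type libraries. Both edited libraries were far below both wild-type libraries, whose own values differed less. Means were 36.0 ± 9.19 (SD, n = 2) in wild-type and 7.61 ± 1.88 (SD, n = 2) in edited cells. On the log2(value + 1) scale, used for all log2 fold changes (edited minus wild-type), the difference was -2.10 (standard error 0.27, 95% interval -2.78 to -1.42), and it passed the test (adjusted p = 0.0202 from limma). At an adjusted p under 0.05, 7.09% of the 9590 genes with a mean of at least 10 differed and 4.2% were lower, against 1 of 3 receptors, which was lower. When single libraries were left out, *ERBB3* stayed between -2.35 and -1.84, and the call was lost without wild-type replicate 1 (-1.84, adjusted p = 0.0870) and without wild-type replicate 2 (-2.35, adjusted p = 0.0995). Over all alternatives the adjusted p of limma ranged from 0.00352 to 0.0995. Of the 11 epithelial markers given above, 6 were called lower and 1 higher in the same comparison, and their part in this result was not tested. In these bulk cultures, fewer cells that express a gene and less RNA per cell cannot be told apart. The listed neighbours of *ERBB3* had higher values in edited cells without passing the test. *PA2G4* and *RPS26* had log2 fold changes of 0.76 and 0.82 (adjusted p = 0.109 and 0.162, limma).

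*EGFR*, the receptor of most of these ligands, had values of 38.7 and 81.5 in the edited, against 148 and 116 in the wild-type libraries. Both edited libraries were below the wild-type libraries, but they differed from each other by 2.10 times, more than the wild-type libraries did (1.28 times). Means were 132 ± 22.8 (SD, n = 2) in wild-type and 60.1 ± 30.2 (SD, n = 2) in edited cells. This gave a log2 fold change of -1.21 (standard error 0.37, 95% interval -2.14 to -0.28), which did not pass the test (adjusted p = 0.0958 from limma). The call depended on the libraries used: without edited replicate 2 the log2 fold change was -1.74 and passed (adjusted p = 0.00898), and without edited replicate 1 it was -0.68 (adjusted p = 0.246), in a range of adjusted p from 0.00898 to 0.284 over the alternatives (limma). Without edited replicate 2 more genes passed in all, 1431 against 680, and with a crossed pairing of all 4 libraries as a block, chosen after seeing the data, *EGFR* passed as well (adjusted p = 0.0420, limma). The median log2 fold change was -0.19 over the 420 tested genes of chromosome 7, where *EGFR* lies, and 0.09 over all that were tested. The listed neighbours of *EGFR*, *SEC61G* and *LANCL2*, had log2 fold changes of 0.32 and 0.68 and did not pass the test (adjusted p = 0.377 and 0.0880, limma).

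*ERBB2*, the receptor without a ligand of its own, varied least among the receptors. It had values of 54.5 and 58.1 in the edited, against 81.0 and 67.0 in the wild-type libraries, a narrow gap between groups. The log2 fold change was -0.38 (standard error 0.19, 95% interval -0.85 to 0.09, adjusted p = 0.219 from limma), so a difference was not detected. It ranged from -0.52 without wild-type replicate 2 to -0.25 without wild-type replicate 1. *ERBB2* lies on chromosome 17 (39688094 to 39728658, plus strand). Its nearer listed neighbour *PGAP3*, 37 bp away, had a log2 fold change of -0.16 and did not pass the test (adjusted p = 0.690, limma). The neighbour on the other side, *GRB7*, lies 9280 bp away and encodes an adaptor that binds ERBB receptors. *GRB7* was at 1.26 and 6.60 in the edited, against 31.3 and 10.6 in the wild-type libraries, with wide differences within both groups. Its difference was -2.22 on the log2 scale (adjusted p = 0.107 from limma).

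The make-up of the receptor transcripts differed between libraries. In wild-type cells the order was *EGFR* (54.6% of the summed receptor value in both libraries), *ERBB2* (29.8% and 31.5%) and *ERBB3* (15.6% and 13.9%), with no overlap between neighbours in that order. *ERBB3* made up 6.31% and 6.02% in edited replicates 1 and 2. *EGFR* made up 38.9% in edited replicate 1, where *ERBB2* led with 54.8%, and 54.9% in edited replicate 2. The mean levels of *EGFR* and *ERBB2* in edited cells, 60.1 ± 30.2 and 56.3 ± 2.52 (SD, n = 2), did not differ beyond their spread. These shares are descriptions of 4 libraries without a test.

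**Figure D1:**
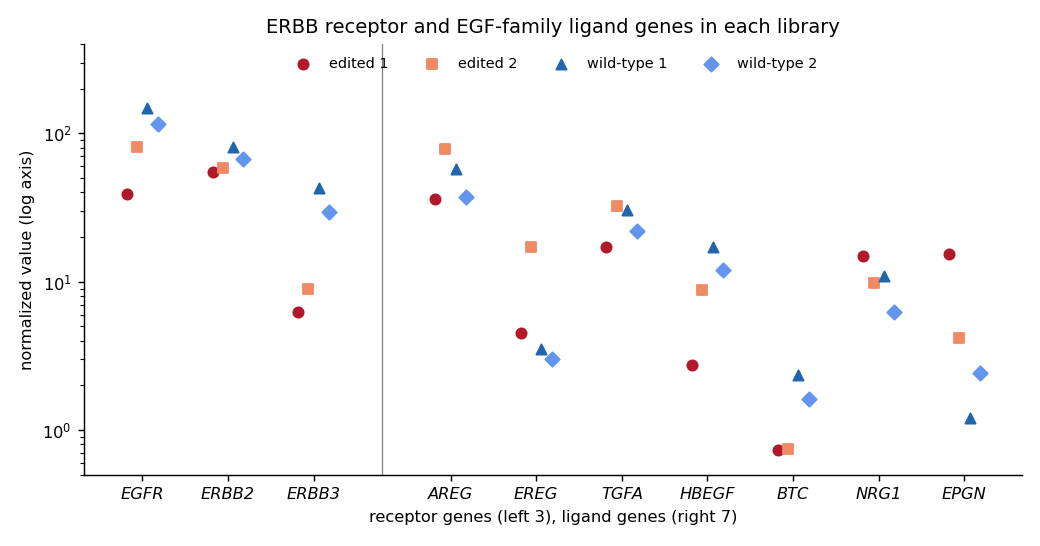
Normalized value (log axis) of the 3 receptor and 7 ligand genes, with 1 point per library (edited replicates in red and orange, wild-type replicates in blue). The edited points of *ERBB3* (6.28 and 8.94) lie well below the wild-type points (42.5 and 29.5), while those of *AREG* and *TGFA* overlap with wild-type points.

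Among the 7 ligands no gene passed an adjusted p of 0.05 in limma, and 3 (*HBEGF*, *BTC* and *EPGN*) had an unadjusted p under 0.05. Such a p was found for 29.2% of all 16811 genes, and 4.73% of these genes passed the adjusted threshold. Of the ligands, 4 had a mean of at least 10 and were tested with the 9590 genes above it, and *EREG*, *BTC* and *EPGN* were tested among all listed genes. The direction was not shared: *HBEGF* and *BTC* had lower and *EREG* and *EPGN* higher values in both edited libraries than in both wild-type libraries, and the groups overlapped for *AREG*, *TGFA* and *NRG1*. Of all 16811 genes, 61.6% had groups that did not overlap, so that separation alone does not set these ligands apart. The median log2 fold change of the ligands was 0.20 and that of the receptors -1.21, beside 0.01 over all listed genes. The summed ligand value was 121 ± 42.5 (SD, n = 2) in edited against 104 ± 27.2 in wild-type cells, within the spread of the replicates. The summed receptor value was 124 ± 34.6 against 242 ± 41.9 (SD, n = 2).

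*AREG* was the leading ligand in every library, at 39.4% and 51.9% of the summed ligand value in edited and 46.7% and 44.0% in wild-type replicates 1 and 2. Amphiregulin is a low-affinity EGFR ligand and the main one of the growing mammary duct. Its values were 36.0 and 78.7 in the edited, against 57.4 and 37.2 in the wild-type libraries, so that the edited libraries held both its lowest and its highest value. The log2 fold change was 0.20 (95% interval -0.82 to 1.22, adjusted p = 0.768 from limma), and it was -0.35 without edited replicate 2.

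*TGFA*, the ligand second in level (chromosome 2, 70447284 to 70553826, minus strand), had values of 17.1 and 32.3 in the edited, against 30.4 and 22.1 in the wild-type libraries. The groups overlapped and the interval of the log2 fold change spanned 0 (-0.13, 95% interval -0.97 to 0.70, adjusted p = 0.813 from limma). *NRG1*, the ligand of ERBB3, had values of 14.9 and 9.81 in the edited, against 10.9 and 6.29 in the wild-type libraries. Its groups overlapped too, with a log2 fold change of 0.49 (95% interval -0.38 to 1.37, adjusted p = 0.371 from limma), and it ranged from 0.14 without wild-type replicate 2 to 0.84 without wild-type replicate 1. *NRG1* has many annotated transcripts, and the table gives 1 value for the gene.

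*HBEGF*, which is released from the cell surface and also binds heparan sulfate, had values of 2.73 and 8.84 in the edited, against 17.2 and 12.0 in the wild-type libraries. These came from 86 reads (interval 68.8 to 106) and 312 reads (278 to 349) in the edited, and from 505 reads (462 to 551) and 378 reads (341 to 418) in the wild-type libraries. These are the smallest whole numbers with the ratios of the 4 values, as for the reads of *BTC* and *EPGN*. Brought to the scale of edited replicate 1 the 4 libraries hold 86, 278, 543 and 377 reads, and their intervals lie apart (68.8 to 106, 248 to 311, 497 to 592 and 340.3 to 417). The log2 fold change was -1.35 (standard error 0.51, 95% interval -2.60 to -0.09, adjusted p = 0.138 from limma). Without edited replicate 2 it was -2.04 and passed the test (adjusted p = 0.0184), without edited replicate 1 it was -0.65 (adjusted p = 0.335), and the adjusted p ranged from 0.0184 to 0.344 over the alternatives. The 393 tested genes of chromosome 5, where *HBEGF* lies, had a median of 0.36, and its listed neighbours *PFDN1* and *ANKHD1-EIF4EBP3* had log2 fold changes of 0.80 and 1.05 (adjusted p = 0.0715 and 0.154, limma).

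*BTC* was the weakest ligand in edited cells, at 0.735 and 0.750 in the edited, against 2.33 and 1.61 in the wild-type libraries. The values came from 21 reads (interval 13.0 to 32.1) and 24 reads (15.4 to 35.7) in the edited, and from 62 reads (47.5 to 79.5) and 46 reads (33.7 to 61.4) in the wild-type libraries. The edited libraries were nearly equal, while the wild-type libraries differed by 1.45 times. Brought to the scale of edited replicate 1, these are 21.0 and 21.4 against 66.7 and 45.9 reads. The ratio of means was 0.377, and the log2 fold change of -0.76 (95% interval -1.44 to -0.08, adjusted p = 0.140 from limma) understates it because the values lie near the pseudocount of 1.

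*EPGN* and *EREG* had their highest values in different edited libraries. *EPGN*, another EGFR ligand, had values of 15.4 and 4.17 in the edited, against 1.21 and 2.43 in the wild-type libraries, from 165 reads (interval 141 to 192), 50 reads (37.1 to 65.9), 12 reads (6.20 to 21.0) and 26 reads (17.0 to 38.1). Edited replicate 1 stood far above the other 3 libraries. The ratio of means was 5.39 and the log2 fold change 1.74 (standard error 0.59, 95% interval 0.25 to 3.24, adjusted p = 0.130 from limma), against 2.58 with edited replicate 2 left out and 0.91 with edited replicate 1 left out. *EREG* had values of 4.52 and 17.0 in the edited, against 3.51 and 3.02 in the wild-type libraries, with edited replicate 2 above the other 3 libraries. Its log2 fold change was 1.23 (standard error 0.57, 95% interval -0.21 to 2.67, adjusted p = 0.221 from limma). Leaving out edited replicate 2 gave 0.37, and leaving out edited replicate 1 gave 2.08.

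**Figure D2:**
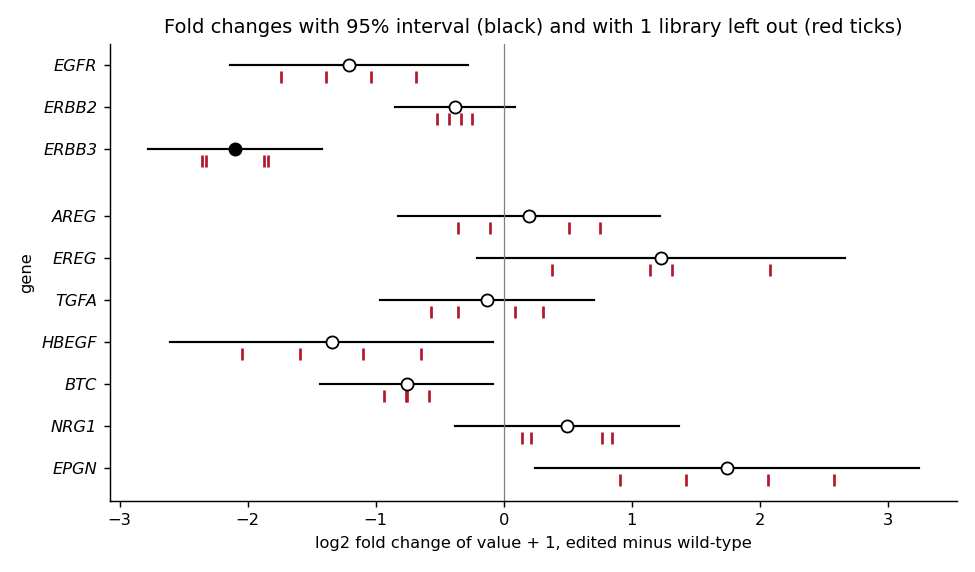
Log2 fold change of value + 1 (edited minus wild-type, x axis) of each member gene, with black lines for the 95% interval from limma, a filled point for the member that passed an adjusted p of 0.05 (*ERBB3*) and red ticks for the values when single libraries were left out. The ticks of *AREG* and *TGFA* lie on both sides of 0, and those of *EGFR* reach from -1.74 to -0.68.

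In the chromosome 4 cluster whose promoters are shown above, the log2 fold changes ran in gene order from 1.74 (*EPGN*) and 1.23 (*EREG*) through 0.20 (*AREG*) to -0.76 (*BTC*). None of these 4 passed the test in limma, where *EPGN* and *BTC* had an unadjusted p under 0.05. *MTHFD2L*, a mitochondrial folate enzyme gene 5371 bp before *EPGN*, had values of 31.5 and 39.7 in the edited, against 13.0 and 12.4 in the wild-type libraries. It rose (1.41 on the log2 scale, adjusted p = 0.0227 from limma). The call was lost with the replicate number as a block (adjusted p = 0.0661, limma). It was also lost without wild-type replicate 1 (log2 fold change 1.45) or wild-type replicate 2 (1.38). The median over the 249 tested genes of this chromosome was 0.12. Order along the chromosome is a description of 4 genes and was not tested.

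The order of the ligands by level also differed between the groups. In wild-type cells it was *AREG* (47.3 ± 14.3, SD, n = 2), *TGFA* (26.2 ± 5.91), *HBEGF* (14.6 ± 3.72), *NRG1* (8.60 ± 3.26), *EREG* (3.27 ± 0.349), *BTC* (1.97 ± 0.514) and *EPGN* (1.82 ± 0.863), and of neighbours in this order only *BTC* and *EPGN* overlapped. In edited cells *AREG* (57.3 ± 30.2, SD, n = 2) and *TGFA* (24.7 ± 10.7) came first and *BTC* (0.743 ± 0.0101) last. Between them stood *NRG1* (12.3 ± 3.59), *EREG* (10.8 ± 8.84), *EPGN* (9.80 ± 7.96) and *HBEGF* (5.78 ± 4.32), where each overlapped with its neighbours in this order. *NRG1* (14.9 and 9.81) did not overlap with *HBEGF* (2.73 and 8.84) and lay above it, whereas it lay below it in wild-type cells. *HBEGF* made up 14.0% and 14.2% of the summed ligand value in wild-type replicates 1 and 2 and 2.99% and 5.83% in edited replicates 1 and 2. *EPGN* made up 16.9% in edited replicate 1 and from 0.981% to 2.87% in the other 3 libraries.

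**Figure D3:**
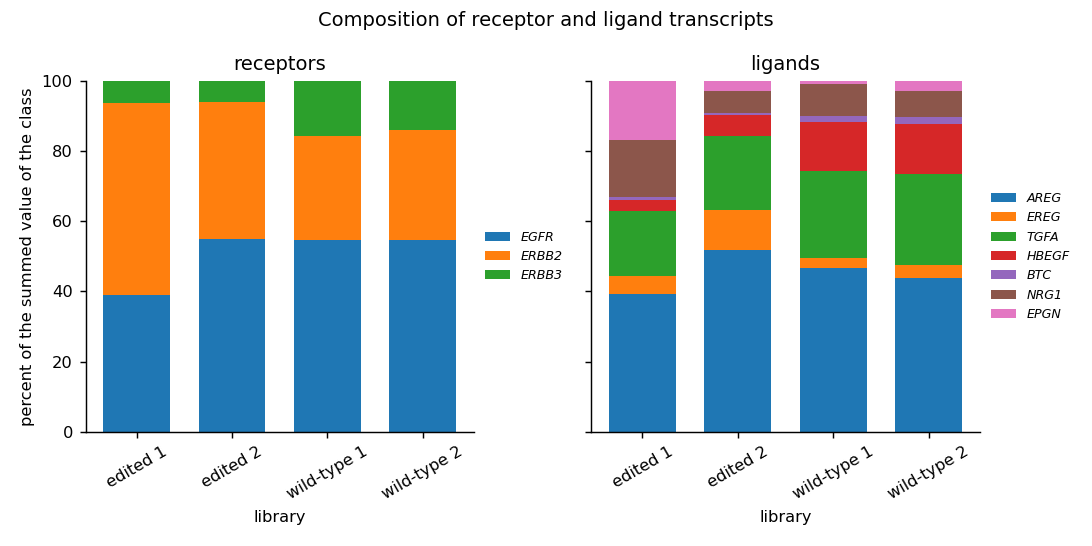
Percent of the summed value of the 3 receptors (left) and of the 7 ligands (right) taken by each gene in each library. The share of *ERBB3* is 6.31% and 6.02% (edited) against 15.6% and 13.9% (wild-type), and *AREG* is the largest ligand share in all 4.

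The edited libraries were not alike in these genes. The gap between edited replicates exceeded 1 on the log2(value + 1) scale for 5 of the 10 members (*EGFR*, *AREG*, *EREG*, *HBEGF* and *EPGN*), against 4.72% of the 9590 genes with a mean of at least 10 and 6.32% of all listed genes. Between the wild-type replicates it exceeded 1 for 0 members and for 3.11% of the 9590 genes. The median gap of the members was 0.97 between edited and 0.47 between wild-type replicates, while over the 9590 genes it was 0.23 and 0.24. Edited replicate 2 had the higher value for 8 of 10 members, all but *NRG1* and *EPGN*, and for 46.6% of the 9590 genes. Wild-type replicate 1 was the higher one for 9 of 10 members, all but *EPGN*, and for 64.0% of the 9590 genes. *EPGN* thus ran opposite to *EGFR*, *AREG*, *EREG* and *HBEGF* within both groups. These counts describe 4 libraries and were not tested.

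**Figure D4:**
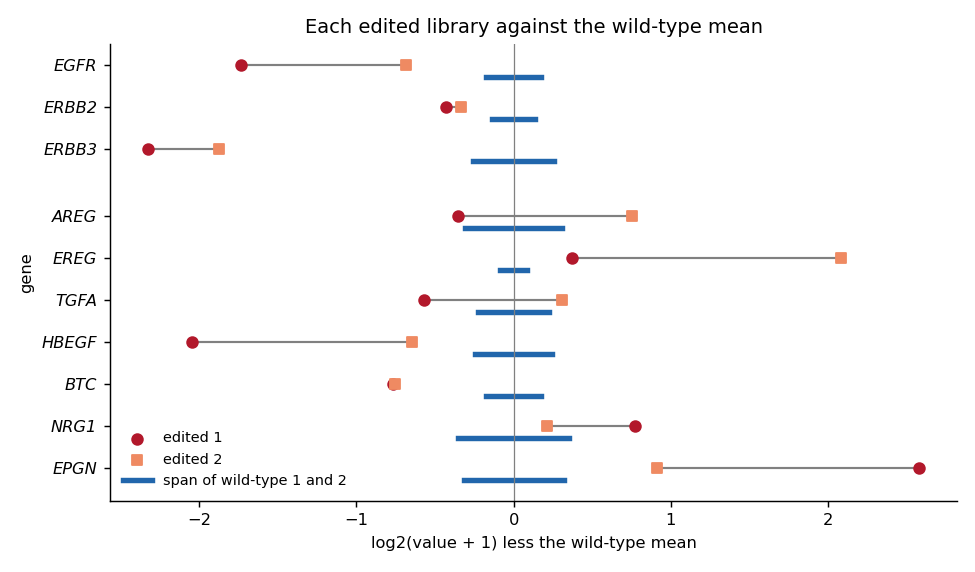
Log2(value + 1) of edited replicates 1 (circles) and 2 (squares) less the mean of the wild-type replicates (x axis) for each member gene, with blue bars for the span of the wild-type replicates. The circles and squares of *BTC* nearly coincide (-0.77 and -0.75), while those of *EREG* (0.37 and 2.08) and *EPGN* (2.58 and 0.91) lie far apart.

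Genes around the receptors were taken from lists of ligand release, receptor adaptors, receptor inhibitors, the RAS-ERK core, early response genes and other family genes. Of their 63 listed genes, 4 passed an adjusted p of 0.05 in limma (6.35%), 1 higher and 3 lower, with a median log2 fold change of -0.13. This share lies between the 4.73% of all listed genes and the 7.09% of those with a mean of at least 10, and is thus near the background. The 4 calls became 7 without edited replicate 2, 2 without edited replicate 1 and 0 in limma without either of the wild-type replicates.

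Of 12 ligand release genes, 2 were called lower and 0 higher, and the median of the list was -0.34 (log2). Over all genes, 4.73% of those listed and 7.09% of those with a mean of at least 10 were called. Whether this list differs from that share was not tested. *RHBDL2*, a rhomboid protease of the cell surface, was at 1.27 and 1.41 in the edited, against 11.9 and 17.3 in the wild-type libraries and fell (log2 fold change -2.72, adjusted p = 0.0167 from limma). *TIMP3*, an inhibitor of metalloproteinases that include ADAM17, fell from 175 and 159 in wild-type to 83.6 and 63.7 in edited replicates (log2 fold change -1.18, adjusted p = 0.0407 from limma). *ADAM12* was at 3.77 and 6.44 in the edited, against 0.667 and 1.07 in the wild-type libraries and narrowly missed the threshold (1.68, adjusted p = 0.0518, limma). *ADAM17*, the main protease for *AREG*, *TGFA*, *HBEGF* and *EREG* products, was not detectably different (log2 fold change -0.44, adjusted p = 0.314), and neither was *ADAM10*, the main protease for betacellulin (-0.23, adjusted p = 0.579, both limma). The call of *RHBDL2* was lost with the replicate number as a block (adjusted p = 0.0531, limma). It was also lost whichever single library was left out (log2 fold change -2.97 to -2.47). The call of *TIMP3* was lost with this block too (adjusted p = 0.0661, limma). It was also lost without edited replicate 2 (log2 fold change -0.99), wild-type replicate 1 (-1.11) or wild-type replicate 2 (-1.25).

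Among genes with a mean of at least 10, 7.09% were called in either direction. Of 14 receptor adaptors 1 rose, *PIK3R1*, the regulatory subunit of PI3-kinase. Its values were 50.5 and 49.4 in the edited, against 17.2 and 25.1 in the wild-type libraries (difference 1.22 on the log2 scale, adjusted p = 0.0403 from limma). This call was lost without a filter (adjusted p = 0.0526), with equal library totals (0.0566) and with cyclic loess (0.0530, all limma). It was lost with the replicate number as a block as well (adjusted p = 0.0734, limma). Leaving out edited replicate 1, wild-type replicate 1 or wild-type replicate 2 also lost it (log2 fold changes 1.21, 0.96 and 1.48). *SOS2*, *NCK1* and *GAB1* had log2 fold changes of -1.13, -0.86 and -0.85 without passing (adjusted p = 0.0674, 0.0919 and 0.121, limma). Of 9 RAS-ERK core genes 0 passed in limma and 2 had an unadjusted p under 0.05, among them *MAPK3* (ERK1) at -0.80 on the log2 scale (adjusted p = 0.0668). Of 15 receptor inhibitors 0 passed in limma and 0 had an unadjusted p under 0.05, with a median log2 fold change of -0.04. One of them, *ERRFI1*, an EGFR inhibitor named here after its values were seen, was at 50.02 and 226 in the edited, against 138 and 26.3 in the wild-type libraries, so that its replicates differed by far more than its groups.

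Early response genes, which are induced within minutes to hours of growth factor signalling, gave 1 lower call among 11 listed genes. Of the 9590 genes with a mean of at least 10, 4.2% were called lower. *ATF3*, a stress-responsive transcription factor, fell from 26.1 and 31.3 in wild-type to 5.32 and 5.48 in edited replicates (-2.21 on the log2 scale, adjusted p = 0.0103 from limma). It missed the threshold without wild-type replicate 1 (0.0647) or wild-type replicate 2 (0.104), its adjusted p ranging from 0.00332 to 0.104. *CCND1* (cyclin D1) was at 141 and 99.6 in the edited, against 60.6 and 38.4 in the wild-type libraries, and *FOSL1* (the AP-1 subunit FRA1) at 46.8 and 66.0 against 26.1 and 7.76. For both, the edited libraries were the higher ones, without passing the test (log2 fold changes 1.28 and 1.88, adjusted p = 0.0605 and 0.0836, limma). Of the 11 early response genes, 10 were higher in edited replicate 2 than in edited replicate 1, and 10 in wild-type replicate 1 than in wild-type replicate 2. Over the 9590 genes these shares were 46.6% and 64.0%. Edited replicate 2 was also higher for 8 of 9 RAS-ERK core, 9 of 12 ligand release and 11 of 15 receptor inhibitor genes. It was higher for 8 of 14 receptor adaptors and 0 of 2 other family genes. Of the other family genes, *NRG2* (1.62 and 1.05 in edited, 0.349 and 0.445 in wild-type replicates 1 and 2) and *NRG4* (1.14 and 0.764, and 0.727 and 2.59) did not pass in limma (adjusted p = 0.160 and 0.612), with an unadjusted p under 0.05 for 1 of the pair, *NRG2*. *ERBB4*, *EGF* and *NRG3* were not analysed here.

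**Figure D5:**
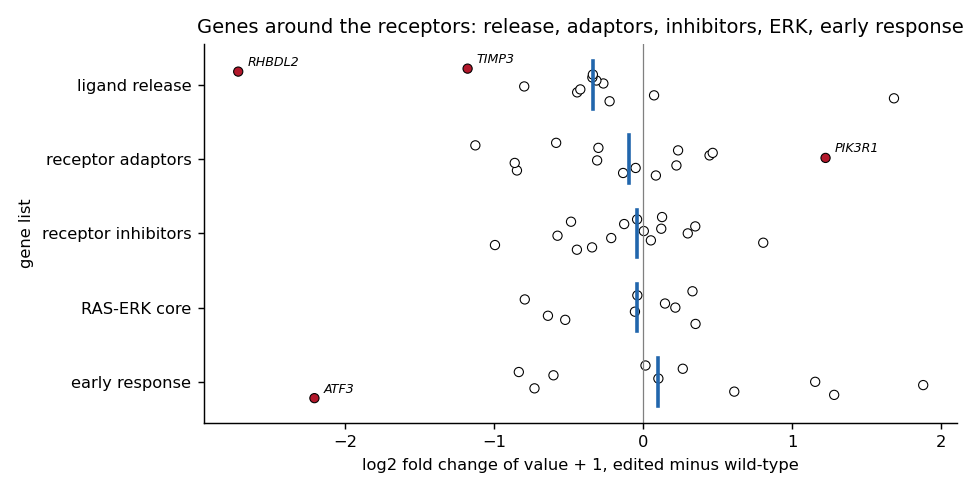
Log2 fold change of value + 1 (edited minus wild-type, x axis) of each gene in 5 lists around the receptors, with filled points for genes that passed an adjusted p of 0.05 in limma and blue lines for the median of each list. The medians lie between -0.34 (ligand release) and 0.10 (early response), and the 4 filled points are *RHBDL2*, *TIMP3*, *PIK3R1* and *ATF3*.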

How the data were processed

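RNA-seq libraries of 2 edited and 2 wild-type samples were grouped by their labels. The authors deposited 1 table of a normalized expression signal for 16811 genes by symbol, with 4 columns, all used. Per the labels, the processing notes name Salmon, HISAT2 and hg38, and the normalization is not given in the sources used here. Ratios of values between libraries piled up at 1 main ratio (152, 102 and 85 genes). The next peak lay at 2.00 or 0.500 times it. The main ratio gave the relative scale of 1 read in each library. Values were whole reads within 1e-05 for 16.7% of the 16213 genes above 0 in all libraries, searched up to 600 reads, so tests for counts were not used. The read numbers are the smallest whole numbers in those ratios. From 19 genes with transcripts of 800 to 1200 bases, 1 read on a transcript of 1 kb was worth a median of 0.0954 in edited replicate 1. The range was 0.0784 to 0.286. Normalized counts had been planned for, but the values also vary with transcript length.

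limma 3.58.1 in R 4.3.3 (lmFit, eBayes with trend) was run on log2(value + 1), two-sided, without a replicate block, for the 9590 genes with a mean of at least 10, p-values being adjusted by Benjamini-Hochberg (threshold 0.05). Members under this mean were read from a fit of all 16811 genes. The study's RNA-seq threshold of 0.001 was an alternative. With 2 libraries a side, the smallest p of an exact permutation test is 0.333. The script was tested on simulated data. The members and lists were chosen with earlier results of these data known. All members were named, with up to 4 genes per list by adjusted p and listed neighbours of members. Also named were *ADAM10* and *ADAM17*, as known sheddases, and *ERRFI1*, after their values were seen. Positions and promoter sequences were taken from RefSeq (GRCh38.p14), where 8 of 10 members had a promoter entry and the other 2, *ERBB3* and *NRG1*, had none. Python 3.11.15, numpy 2.4.6, pandas 2.3.3, scipy 1.17.1 and matplotlib 3.10.9 were used.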

Additional observations from a re-analysis of the deposited data

How the results depend on the processing

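Each member was refitted under up to 14 alternatives, of which the crossed block was chosen after seeing the data. Filters that a member did not pass gave no value of their own. Of 130 such values, 120 kept their direction and side of the threshold, 3 lost the call (*ERBB3*), 3 gained one (*EGFR* and *HBEGF*) and 4 reversed. *AREG* reversed without edited replicate 2 (-0.35) and wild-type replicate 2 (-0.11), in a range of -0.35 to 0.75 with a library left out, and *TGFA* without edited replicate 1 (0.31) and wild-type replicate 1 (0.09), in a range of -0.57 to 0.31.

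The number of genes that differed was 680 (277 higher, 403 lower). It was 419 with a mean of at least 50 (228 higher, 191 lower), 795 without a filter (224 higher, 571 lower) and 1 at the threshold of 0.001, where the receptors, the ligands and the lists had 0 calls in limma. With a library left out it ranged from 4 (without wild-type replicate 2) to 1431 (without edited replicate 2), that of receptors from 0 to 2, of ligands from 0 to 1 and of list genes from 0 to 7. It was 47 without wild-type replicate 1 and 424 without edited replicate 1. The lone library of a group is then assumed to vary like the others, and the cause was not tested. With the replicate number as a block, 133 genes, 0 receptors, 0 ligands and 1 list gene passed, while 2944 genes had an unadjusted p under 0.05, and *ERBB3* had an adjusted p of 0.0661 (limma; 0.00352 to 0.0995 over its alternatives). Whether the replicate numbers pair the samples is not given in the sources used here. Same-numbered deviations correlated at -0.138 over the 9590 genes, and a correlation from 2 pairs of libraries cannot decide it. The crossed pairing gave 1002 genes, 2 receptors and 7 list genes. Equal library totals shifted the median over all genes by -0.12 (log2). Having 2 libraries per group limits every test, and few reads limit the precision of *BTC* and of *EPGN*.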
